A study of Mus musculus with 8 samples.

Results

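Hepatocyte identity in the mouse liver is kept by a small group of transcription factors, and 9 of them were followed here by the gene names on the arrays: Hnf4a, Nr5a2, Foxa1, Foxa2, Foxa3, Cebpa, Gata4, Onecut1 and Prox1. They are 9 of 63329 gene names found on at least 1 of the 2 array designs used. Total RNA was measured on 8 one-colour Agilent arrays, with 2 arrays for each of 4 groups. L3 and L4 held lineage-negative bone marrow (Lin- BM) cells. H2 and H4 held primary hepatocytes. BM-derived hepatocytes were collected 1 month (B1 and B2) or 5 months (G1 and G3) after transplantation. The Lin- BM cells came from adult female eGFP-transgenic mice (C57Bl6/J-Tg(UBCGFP)30Scha/J, with eGFP driven by the ubiquitin C promoter) and had been depleted of cells with mature lineage antigens. Donor cells of this kind had been given to male hemophilia A mice (B6;129S4-F8tm1Kaz/J, in which the factor VIII gene is disrupted) after acetaminophen injury of the liver, and BM-derived hepatocytes were sorted from the perfused recipient livers by eGFP. Hepatocytes were separated from non-parenchymal cells by a low-speed spin before the sort, and sorted cells were stained for albumin. The eGFP gate itself selects cells that carry the donor's eGFP, which includes donor cells fused with recipient cells. By staining of the sex chromosomes, the paper reports that a minority of the sorted cells were such fusion hybrids, with fewer at the later time. Their part in the members' results was not tested. Each array held cells pooled from several mice, so the spread between arrays is that between pools. The strain of the primary hepatocytes is not given in the sources used here.

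As background, these factors act as a network. Hnf4a is a nuclear receptor that switches on much of the liver's secretory and metabolic programme, and Nr5a2 (LRH-1) is a nuclear receptor of bile acid and cholesterol genes. Foxa1, Foxa2 and Foxa3 are forkhead factors that open chromatin at liver enhancers, and Cebpa is a basic leucine zipper factor of metabolic genes that also drives myeloid differentiation in bone marrow. Gata4 is a zinc finger factor of early liver and of sinusoidal endothelium, Onecut1 (HNF6) is a cut-homeodomain factor, and Prox1 is a homeodomain factor of hepatoblasts, hepatocytes and lymphatic endothelium.

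The 4 groups were spread over 2 array designs on 2 slides. Lin- BM cells and 1-month cells shared a slide with 61307 probes, and primary hepatocytes and 5-month cells shared a slide with 55681 probes. Between 47.7% and 58.6% of the probes of the first slide and between 48.9% and 51.9% of those of the second were well above background by the scanner software's flag. Levels are the log2 of the background-subtracted signal minus the 75th percentile of that array, so that 0 is the 75th percentile of the probes, and a level can be compared between arrays for the same probe but not between probes. The members had 14 probes on the first slide and 12 on the second, of which 3 (Foxa3, Cebpa and Nr5a2) had the same sequence on both. A gene was called where limma gave a Benjamini-Hochberg adjusted p under 0.05 and a log2 difference beyond 0.6. The number of arrays limits the precision: with 2 against 2, the smallest two-sided p of an exact permutation test for 1 gene is 0.33. The hepatocyte markers fixed for the check were well above background for 1 of 5 in Lin- BM cells (Tat), 5 of 5 at 1 month and 6 of 6 on both groups of the second slide. Blood markers were above background for 6 of 6 in Lin- BM cells, with a summed linear level of 636 to 719 times the 75th percentile, and for 4 of 6 at 1 month, with 3.52 to 6.10.

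Most probes of this kind of array lie near the 3′ end of a transcript. By their reading frame and general knowledge of the proteins, 4 probes of the members were placed in or beside the sequence that encodes the DNA-binding part. These are printed because their signal is read in or near the region that defines the factor. They are 60 bases long, written 5′ to 3′ as deposited. For Hnf4a, capitals mark the codons of the last 3 zinc-holding cysteines of the DNA-binding domain. For Cebpa, capitals mark every leucine codon of the probe, which was placed in the leucine zipper, and not only the regularly spaced ones. For Onecut1 on the first slide they mark the asparagine and arginine codons of the homeodomain's recognition helix. The second Onecut1 probe was placed at the start of the cut domain, most of it may lie before that domain, and it has no capitals. It lies at chr9:74710921-74710980 (plus strand) in the mm9 build that the files give. The probes of the first slide have no position in its files.
Hnf4a, first slide: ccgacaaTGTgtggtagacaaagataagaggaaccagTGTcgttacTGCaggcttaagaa
Cebpa, first slide: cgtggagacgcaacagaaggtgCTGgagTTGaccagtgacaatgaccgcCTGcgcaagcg
Onecut1, first slide: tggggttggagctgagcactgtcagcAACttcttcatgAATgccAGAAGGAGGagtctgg
Onecut1, second slide: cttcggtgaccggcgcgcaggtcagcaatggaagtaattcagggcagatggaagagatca

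At 1 month after transplantation, 7 of the 9 members were called higher in BM-derived hepatocytes than in Lin- BM cells, 1 (Gata4) was tested and not called, and 1 (Foxa1) was too dim for the test. Of all 28535 genes tested on that slide, 28.8% were called higher and 26.5% lower, and the median log2 difference over all genes was 0.07. The 8 members tested had a median log2 difference of 7.15, or 5.95 with the 4 members that were not above background in Lin- BM cells set at their bound. These 4 (Foxa2, Foxa3, Onecut1 and Prox1) passed the filter only through the 1-month arrays, so they could hardly be called lower. The limma p-values given for them below come from fitted values and not from the bounds. In Lin- BM cells 4 of the 9 members (Hnf4a, Nr5a2, Cebpa and Gata4) had a probe well above background on both arrays, and at 1 month 8 of the 9 had one. Kupffer cell markers moved with these members: 4 of 5 (Clec4f, Vsig4, Timd4 and Marco) were called higher at 1 month. The summed level of all 5 was 0.551 to 2.59 in Lin- BM cells, where Clec4f and Vsig4 were below background on both arrays, and 8.56 to 36.1 at 1 month. The fifth marker, Cd5l, was not called. It read -3.29 in L3, 1.16 in L4, 2.20 in B1 and 4.68 in B2, and supplied the largest part of the sum in L4, B1 and B2. The part of Kupffer cells in the members' results was not tested. In bulk RNA of this kind, fewer cells that express a gene and less of its RNA per cell cannot be told apart.

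**Figure D1:**
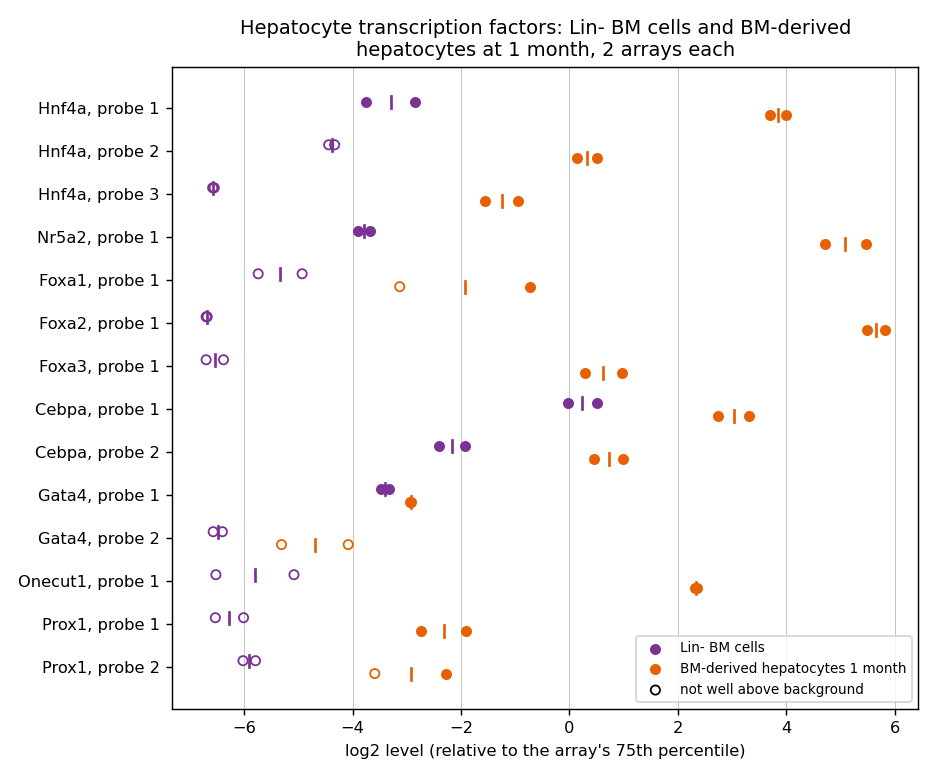
Level of each member probe on the slide of Lin- BM cells (purple) and BM-derived hepatocytes at 1 month (orange), on the log2 scale relative to each array's 75th percentile, with 1 point for each of the 2 arrays of a group and a bar at their mean. Hollow points were not well above background, which was the case for all Lin- BM points of 9 of the 14 probes; Gata4 is the member whose groups lie closest.

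Hnf4a was read by 3 probes on this slide. On its brightest probe the level was -2.84 in L3 and -3.75 in L4, against 4.0 in B1 and 3.70 in B2. The signal was thus just detectable in Lin- BM cells and high in both 1-month arrays, a log2 difference of 7.14 ± 0.40 (SE, n = 2 and 2; limma adjusted p = 0.000374). The probe in the DNA-binding domain, printed above, was not above background in L3 (-6.58) or L4 (-6.55) and reached -0.94 in B1 and -1.55 in B2, which is at least 9.33-fold higher. The other Hnf4a probe was also below background in L3 and L4, and its 1-month arrays stood at least 26-fold higher. A bound of this kind sets the 1-month mean against the lowest level that counted as above background on each Lin- BM array, or the probe's own level where that was higher. That level is no strict limit for a dim probe. In B1, Foxa1 read -3.13 and was not above background, though the lowest level that counted was -3.41.

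Nr5a2, the other nuclear receptor, also rose. Its level was -3.90 in L3 and -3.67 in L4, and 5.46 in B1 and 4.72 in B2, so that the groups were separated by a log2 difference of 8.88 ± 0.35 (SE, n = 2 and 2; limma adjusted p = 0.000162). The Nr5a2 probe was above background on all 4 arrays, so this is a measured difference and not a bound. Its Lin- BM levels lay near the lowest that counted as above background, -4.44 in L3 and -4.50 in L4. Across the alternatives the log2 difference ran from 6.13 to 9.24.

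Among the 3 forkhead genes, Foxa2 and Foxa3 were called higher and Foxa1 could not be tested. Foxa2 was at the bottom of the scale in Lin- BM cells (-6.70 in L3 and -6.68 in L4) and high on it at 1 month (5.48 in B1 and 5.81 in B2). This is at least 1107-fold higher (limma adjusted p = 6.25e-05 on the fitted values, not on the bound). Foxa3 was likewise below background in Lin- BM cells (-6.38 and -6.70) and at 0.96 in B1 and 0.29 in B2, at least 34.1-fold higher (limma adjusted p = 0.000265). Foxa1 was above background on 1 of the 4 arrays only, B2, where its level was -0.73, while B1 stood at -3.13 and the Lin- BM arrays at -4.93 and -5.74. With B1 and both Lin- BM arrays below background, no fold is given for Foxa1.

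Cebpa was well above background in Lin- BM cells by both of its probes and rose from there. Its brighter probe read 0.50 in L3 and -0.03 in L4, and 3.31 in B1 and 2.74 in B2, a log2 difference of 2.79 ± 0.35 (SE, n = 2 and 2; limma adjusted p = 0.00341). The leucine zipper probe printed above was dimmer and gave nearly the same difference, 2.89 ± 0.35 (SE), from -1.92 and -2.41 to 0.99 and 0.45. All 8 readings of the Cebpa probes were above background, so this is a measured difference and not a bound. Before the percentile shift the brighter probe's signal was 272 in L3, 172 in L4, 742 in B1 and 594 in B2. It was thus already higher at 1 month, and part of the log2 difference comes from the shift. The call was lost under the methods' t-test after Benjamini-Hochberg adjustment (adjusted p = 0.0663).

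Gata4 was above background on all 4 arrays by 1 of its 2 probes and barely differed: -3.33 in L3, -3.47 in L4, -2.92 in B1 and -2.94 in B2. Before the percentile shift its signal was lower at 1 month, with 19.1 in L3, 15.8 in L4, 9.9 in B1 and 11.6 in B2. The upper quartile signal of these arrays was 193.4, 176.9, 75.5 and 89.5, so the direction of the difference comes from the shift. The 2 groups did not overlap, which held for 82.1% of all genes in this comparison. The log2 difference of 0.47 had a 95% interval from -0.19 to 1.14 and was not called (limma adjusted p = 0.173). Under normexp background correction it was 0.66 and was called (adjusted p = 0.0102). The other Gata4 probe was not above background on any array. Gata4 is also made by liver endothelium, whose 6 markers had a summed level of 1.68 to 2.30 in Lin- BM cells and 55.3 to 60.6 at 1 month, with Pecam1 not above background in B1 and Lyve1 not in L3. Of these 6, 5 were called higher at 1 month and Pecam1 was called lower. The 6 stellate cell markers summed to 22.5 to 167 in Lin- BM cells and 22.1 to 30.9 at 1 month, with Des not above background on any of the 4 arrays. Lrat and Reln were called higher at 1 month, and Col1a1 and Pdgfrb lower. Their part in the Gata4 result was not tested.

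Onecut1 and Prox1 were both below background in Lin- BM cells. The Onecut1 homeodomain probe read -5.08 in L3, -6.52 in L4, 2.32 in B1 and 2.36 in B2, at least 112-fold higher at 1 month (limma adjusted p = 0.000552). The brighter Prox1 probe read -6.01 and -6.53 in the Lin- BM arrays and -1.91 and -2.73 at 1 month, a dim signal at least 4.42-fold higher (limma adjusted p = 0.00183). Under the methods' t-test after Benjamini-Hochberg adjustment the Prox1 call was lost (adjusted p = 0.0608). The second Prox1 probe was above background in B1 only. Beside Prox1, of the lymphatic endothelial markers Flt4 was above background in B1 and B2 and Pdpn was not, with a summed level of 0.0311 to 0.0326 in Lin- BM cells and 0.214 to 0.285 at 1 month; their part in the Prox1 result was not tested. With normexp correction, which adds an offset to every signal and draws dim values together, the 7 called members kept their direction and their calls with log2 differences between 1.13 (Prox1) and 6.92 (Foxa2). For Foxa2 and Prox1 these differences are smaller than the bounds, so the bounds hold for the main processing only.

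At 5 months no member was called against primary hepatocytes, where 0.552% of the 19933 genes tested were called in either direction. Each of the 12 member probes of that slide was detected above background in H2, H4, G1 and G3. The members' median log2 difference was -0.12, against 0.04 for all genes. The 9 members ran from -1.65 (Prox1) to 0.76 (Foxa1). By the unadjusted limma p, 4 of the 9 were under 0.05, where 14.1% of all genes were, and the 2 groups did not overlap in 5 of the 9, where they did not in 47.9% of all genes. The methods' t-test put 3 members (Foxa1, Nr5a2 and Prox1) past its unadjusted threshold with a log2 difference beyond 0.6, and none after Benjamini-Hochberg adjustment.

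**Figure D2:**
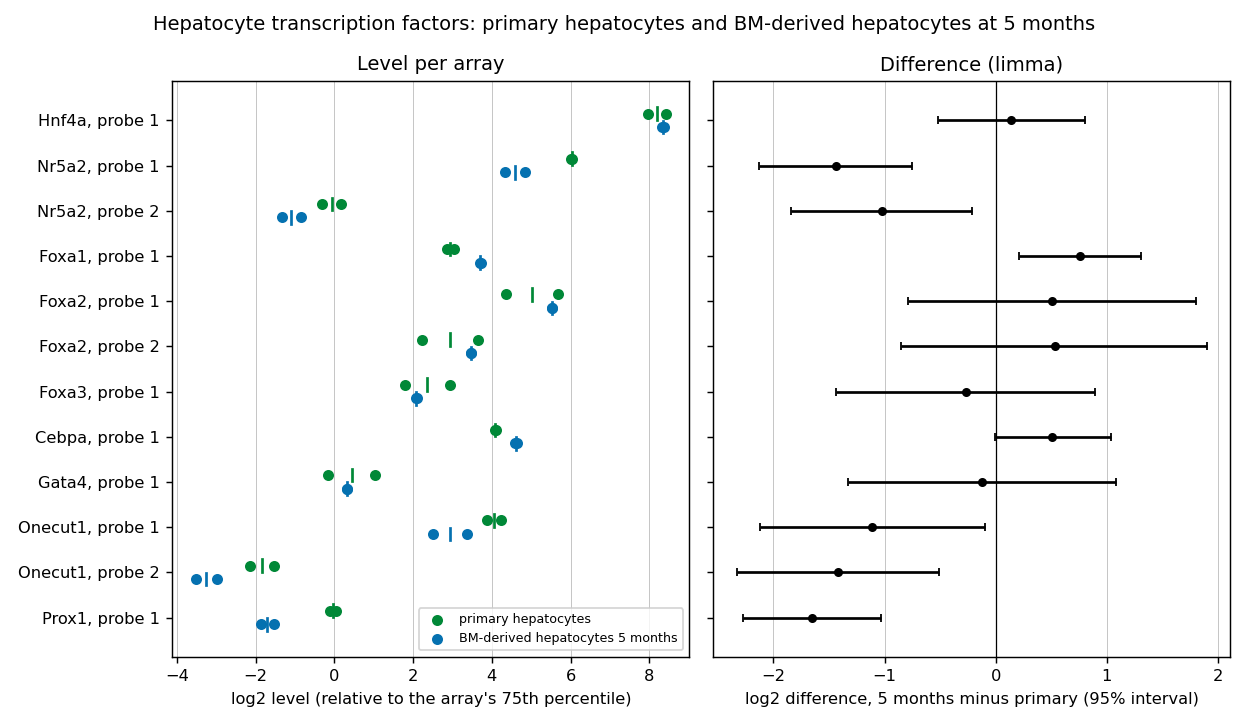
Left, level of each member probe on the slide of primary hepatocytes (green) and BM-derived hepatocytes at 5 months (blue), on the log2 scale relative to each array's 75th percentile, with 1 point per array and a bar at the mean of 2. Right, the limma log2 difference of the same probe with its 95% interval; the 5 probes of Nr5a2, Onecut1 and Prox1 lie below 0, none of them called.

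Hnf4a showed nearly the same level in all 4 arrays. Its probe at chr2:163398548-163398607 (mm9, plus strand) read 7.97 in H2, 8.42 in H4, 8.31 in G1 and 8.36 in G3. The 5-month values lay between those of the primary hepatocytes, and the log2 difference of 0.14 had a 95% interval from -0.52 to 0.80 (limma adjusted p = 0.843).

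The members with the lowest differences at 5 months were Prox1, Nr5a2 and Onecut1. Prox1 (chr1:191945785-191945844, minus strand) read 0.03 in H2, -0.12 in H4, -1.53 in G1 and -1.87 in G3. The groups were apart by a log2 difference of -1.65 (95% interval -2.27 to -1.03), which did not pass the correction over all genes (limma unadjusted p = 0.00141, adjusted p = 0.097). When a primary hepatocyte array was left out, the Prox1 difference was -1.58 without H2 and -1.73 without H4. The spread in these fits comes from G1 and G3 alone, so no call is drawn from them. The lymphatic endothelial markers that stand beside Prox1 summed to 0.146 to 0.204 in primary hepatocytes and 0.117 to 0.167 at 5 months, with Pdpn below background on all 4 arrays.

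Nr5a2 was read by 2 probes, at chr1:138740903-138740962 and chr1:138741712-138741771 (minus strand). The first read 6.03 in H2 and 6.02 in H4, and 4.83 in G1 and 4.34 in G3, a log2 difference of -1.44 (95% interval -2.13 to -0.75; limma unadjusted p = 0.00375, adjusted p = 0.135). The second was dimmer and read 0.18 and -0.32, against -0.85 and -1.33, a difference of -1.02. On both probes each 5-month array lay below each primary hepatocyte array.

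Onecut1 also had 2 probes, that printed above and 1 at chr9:74737402-74737461 (plus strand). The brighter, downstream probe read 4.24 in H2, 3.87 in H4, 3.38 in G1 and 2.50 in G3, and its log2 difference of -1.11 had a 95% interval from -2.12 to -0.10 (limma unadjusted p = 0.0372, adjusted p = 0.323). The probe printed above read -1.52 and -2.15 against -2.99 and -3.52, a difference of -1.42. The probes lie far apart on the chromosome and had the same sign, but they share the RNA of the same 4 arrays and are not replicates.

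Foxa1 and Cebpa lay higher at 5 months. Foxa1 (chr12:58641764-58641823, minus strand) read 2.85 in H2, 3.04 in H4, 3.72 in G1 and 3.69 in G3, a log2 difference of 0.76 (95% interval 0.21 to 1.31; limma adjusted p = 0.257). Its probe on this slide was well above background, unlike the different Foxa1 probe of the other slide, so nothing can be said of its course between 1 and 5 months. Cebpa (chr7:35906517-35906576, plus strand) read 4.10 and 4.08 in primary hepatocytes and 4.58 and 4.63 at 5 months, a difference of 0.51 that did not reach 0.6 (95% interval -0.01 to 1.04; limma adjusted p = 0.36). Blood markers, which stand beside Cebpa because it is also a myeloid gene, summed to 1.54 to 1.85 in primary hepatocytes, 6.52 in G1 and 1.67 in G3, and their part was not tested.

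In Foxa2, Foxa3 and Gata4 the primary hepatocyte arrays differed more from each other than the groups did. Foxa2 read 5.67 in H2, 4.37 in H4, 5.52 in G1 and 5.54 in G3 on the brighter of its probes (chr2:147868669-147868728, minus strand), and the neighbouring probe (chr2:147868614-147868673) had the same shape with 3.66, 2.22, 3.47 and 3.46. Foxa3 (chr7:19599053-19599112, minus strand) ran the other way between the primary arrays, with 1.79 in H2 and 2.93 in H4, and stood at 2.07 in G1 and 2.10 in G3. Gata4 (chr14:63817858-63817917, minus strand) read 1.04 and -0.16 in primary hepatocytes and 0.32 and 0.31 at 5 months. None of the 3 was called, and the 95% intervals of their log2 differences were wide, from -0.79 to 1.80 for Foxa2, from -1.44 to 0.89 for Foxa3 and from -1.33 to 1.08 for Gata4. Endothelial markers summed to 49.3 to 53.5 in primary hepatocytes and 53.7 to 65.9 at 5 months, and stellate markers to 8.90 to 46.3 and 38.0 to 45.0. Kupffer cell markers summed to 20.7 to 44.1 in primary hepatocytes and 87.8 to 93.1 at 5 months, with none of the 5 called, and the part of any of these cells was not tested.

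For Foxa3, Cebpa and Nr5a2 the same probe sequence on both slides allowed all 4 groups to be set side by side, on levels relative to the 75th percentile of the 13991 shared probe sequences. Each slide held 2 whole groups, so slide and group cannot be told apart in any comparison across slides. All 3 members were called higher in primary hepatocytes than in Lin- BM cells, where 29.3% of the 9227 genes tested were, and all 3 were called higher at 5 months than in Lin- BM cells, where again 29.3% were; these comparisons share the Lin- BM arrays. Both of the groups on the second slide stood far above Lin- BM cells by this measure, as the 1-month cells did on the first. Foxa3 was below background in Lin- BM cells and entered the test through the other groups, so it could hardly be called lower there.

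**Figure D3:**
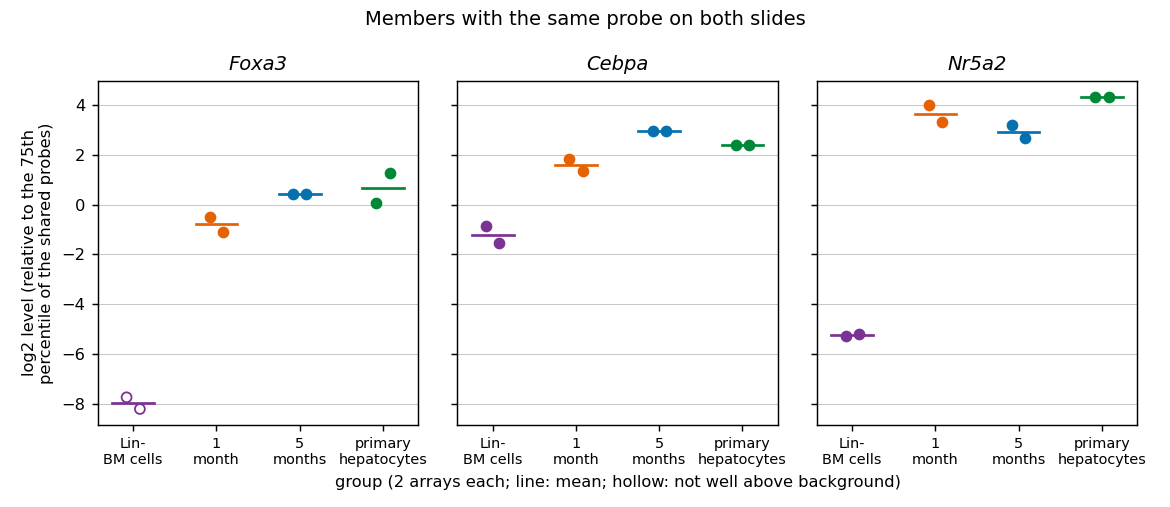
Level of Foxa3, Cebpa and Nr5a2 in the 4 groups, each by 1 probe present on both slides, on the log2 scale relative to the 75th percentile of the shared probes; points are arrays, lines are means of 2, and hollow points were not well above background. Lin- BM cells and 1-month cells were on one slide and the other groups on the other; Cebpa lies highest at 5 months and Nr5a2 in primary hepatocytes.

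Cebpa was detected in all 4 groups. Its level was -0.87 and -1.55 in Lin- BM cells, 1.86 and 1.35 at 1 month, 2.40 and 2.41 in primary hepatocytes, and 2.96 in both 5-month arrays. The order was Lin- BM cells, 1 month, primary hepatocytes and 5 months; neither the step from 1 month to primary hepatocytes (0.80, limma adjusted p = 0.127) nor that from primary hepatocytes to 5 months (0.56, adjusted p = 0.506) was called. The difference between 5 months and 1 month was, a log2 difference of 1.35 (95% interval 0.62 to 2.08; limma adjusted p = 0.0302), where 5.8% of genes were called higher. It was not called when any 1 of the 4 arrays of these groups was left out, with differences between 1.1 and 1.61. In the same comparison the hepatocyte markers Alb and Apoa1, the target genes Apob and F7 and the Kupffer cell marker Marco were also called higher and the endothelial marker Kdr lower, and the part of these cells in the Cebpa result was not tested. Of all genes called in this comparison 33.9% were higher, against 52.6% with the percentile over all probes of each design and 47.1% after quantile normalization.

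Foxa3 was below background in Lin- BM cells (-7.75 and -8.22) and read -0.49 and -1.10 at 1 month, 0.45 and 0.43 at 5 months, and 0.08 and 1.26 in primary hepatocytes. The 1-month arrays were lowest of the hepatocyte groups, a log2 difference of -1.47 from primary hepatocytes (95% interval -2.51 to -0.43; limma adjusted p = 0.0655) where 5.13% of genes were called lower. Scaling each array to all probes of its own design moved this to -1.73, past the threshold (adjusted p = 0.0367), and moved the median of all genes in that comparison from 0.17 to -0.09. The share of higher among all calls was 69.5%, and became 50% with that scaling and 53.0% after quantile normalization. Without H2 the difference was -2.06 and was called (adjusted p = 0.0335), and without H4 it was -0.87 (adjusted p = 0.201). The 5-month arrays lay within the range of the primary hepatocytes.

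Nr5a2 was lowest at 5 months among the hepatocyte groups. It read -5.28 and -5.20 in Lin- BM cells, 4.01 and 3.33 at 1 month, 3.21 and 2.67 at 5 months, and 4.33 and 4.35 in primary hepatocytes. The 3 hepatocyte groups did not overlap. Over all genes, 1 month and primary hepatocytes did not overlap in 64.7%. For 5 months against 1 month the share was 71.7%, and for 5 months against primary hepatocytes 48.2%. None of the Nr5a2 differences between these 3 groups was called. They were -0.67 for 1 month against primary hepatocytes (limma adjusted p = 0.188) and -0.73 for 5 months against 1 month (limma adjusted p = 0.149). For 5 months against primary hepatocytes the difference was -1.40 (limma adjusted p = 0.122). Against Lin- BM cells the fit over the 8 arrays gave log2 differences of 9.57 in primary hepatocytes, 8.90 at 1 month and 8.17 at 5 months.

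Genes whose levels followed those of a member over the 8 arrays were sought among 8748 other named genes by the root mean square difference of mean-centred log2 levels. The nearest to Foxa3 were Naaladl2 (0.31), Slc23a1, a vitamin C transporter (0.36), and F7, which encodes coagulation factor VII (0.41). Foxa3 was below background in L3 and L4, so on those arrays its match rests on background readings. The nearest to Cebpa were 1700022A21Rik (0.24), Btd, which encodes biotinidase (0.24), and Tmem243 (0.25). The nearest to Nr5a2 were Serpina3n, a secreted protease inhibitor (0.21), Gm3134 (0.34) and Vmo1 (0.46). These are descriptions over 4 groups and say nothing of shared control.

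Other transcription factors of liver were followed against the same reference groups, Lin- BM cells at 1 month and primary hepatocytes at 5 months. At 1 month, 17 of the 22 tested on a wider list of liver factors were called higher than in Lin- BM cells and none lower, with a median log2 difference of 2.58. Of all genes tested, 28.8% were called higher and 26.5% lower. On this list 2 genes were below background in Lin- BM cells and entered the test only through the 1-month arrays. The largest differences among those above background on all 4 arrays were in Creb3l3, a factor of fasting and lipid genes (9.66 ± 0.42), Mlxipl, which encodes the glucose-responsive ChREBP (9.16 ± 0.45), and Onecut2 (7.64 ± 0.35, all SE, n = 2 and 2). Nfia, Hlf, Cebpd, Dbp and Hhex were not called, with values from -0.57 (Dbp) to 1.22 (Nfia); these were named after their values were seen, other than Cebpd. At 5 months none of the 23 tested was called against primary hepatocytes (2 at an unadjusted limma p under 0.05), with a median of -0.17. The largest values were those of Dbp, a clock output factor, at -1.68 with an SE of 1.88, Hhex at 1.07 ± 0.30 and Tbx3 at 1.05 ± 0.35. For Dbp the primary arrays lay far apart, with 2.28 in H2 and 7.81 in H4. Its 5-month levels of 3.38 in G1 and 3.37 in G3 lay between them.

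Nuclear receptors and coregulators that work with Hnf4a and Nr5a2 were called higher at 1 month in 14 of 22 and lower in 1, with a median log2 difference of 4.37. On this list 4 genes were below background in Lin- BM cells and entered the test only through the 1-month arrays. Nr1h3, the oxysterol receptor LXR alpha, was 6.69 ± 0.56 higher and Nr1i3, the xenobiotic receptor CAR, 5.88 ± 0.39 (SE, n = 2 and 2). The corepressor gene Nrip1 was the 1 that fell, by 1.43 on the log2 scale (limma adjusted p = 0.0202), and is named for that. At 5 months none of the 22 tested was called (3 at an unadjusted limma p under 0.05), and the median was -0.43, against 0.04 for all genes. Ppargc1a, a coactivator of fasting genes, had -0.67 ± 0.52 and Nr1i3 -0.66 ± 0.44.

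**Figure D4:**
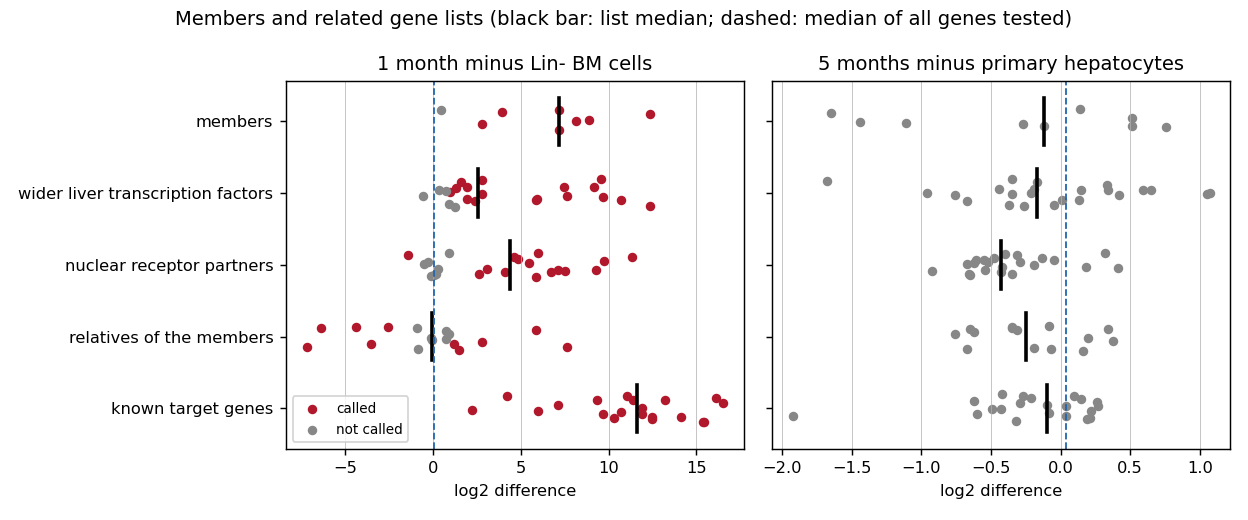
Log2 difference of each tested gene of the members and of the 4 lists, for 1 month minus Lin- BM cells (left) and 5 months minus primary hepatocytes (right), with called genes in red, list medians as black bars and the median of all genes as a dashed line. The 2 horizontal scales differ; values of genes below background in Lin- BM cells are fitted values, not bounds. At 1 month the lists other than the relatives lie mostly above 0, and at 5 months no gene of any list was called.

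The DNA-binding relatives of the members moved in both directions at 1 month, with 5 of the 17 tested called higher, 5 lower and a median log2 difference of -0.07. Those that fell included the blood GATA factors: Gata2 by 7.2 and Gata3 by 4.42 on the log2 scale, and Gata1, below background at 1 month, which was at least 18.8-fold lower. Gata6, the GATA factor that shares roles with Gata4 in liver, was higher by 5.87 ± 0.42, and Onecut2, the paralog of Onecut1, by 7.64 ± 0.35 (SE, n = 2 and 2). Cebpb was higher by 2.76 ± 0.49, while Cebpd (0.73 ± 0.49) and Cebpg (0.73 ± 0.33) were not called. Onecut3 and Cebpe were called higher with smaller differences of 1.48 and 1.17. The upper quartile signal was 193.4 in L3 and 176.9 in L4, against 75.5 in B1 and 89.5 in B2. The percentile shift thus raises 1-month levels against Lin- BM levels, and differences of this size rest largely on it. Hnf4g (-0.15) and Nr5a1 (0.92), the paralogs of Hnf4a and Nr5a2, were not called. The other 2 that fell were Foxm1, of dividing cells, and Foxp1, named for their calls. At 5 months none of the 14 tested was called against primary hepatocytes and none had an unadjusted limma p under 0.05; Cebpg had the largest difference, -0.76 ± 0.29, with Cebpd at -0.67, Foxo3 at -0.65, Cebpb and Gata6 at -0.35 and Onecut2 at 0.34.

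Textbook target genes of the members were called higher at 1 month in 20 of 20, with a median log2 difference of 11.63, or 10.55 with the 12 that were below background in Lin- BM cells set at their bound. Those 12 entered the test only through the 1-month arrays and could hardly be called lower. Of all genes tested, 28.8% were called higher. The list was also chosen with earlier results of these data known. Among those above background on all 4 arrays, Pck1, the key enzyme of gluconeogenesis, was higher by 12.47 ± 0.27, the tyrosine-degrading enzyme gene Tat by 11.38 ± 0.29 and the glucose-6-phosphatase gene G6pc by 10.29 ± 0.29 (SE, n = 2 and 2). At 5 months none of the 21 tested was called against primary hepatocytes (1 at an unadjusted limma p under 0.05), with a median of -0.10. The iron hormone gene Hamp, a Gata4 target, had the largest difference, -1.92 ± 0.37 (limma adjusted p = 0.159), followed by Cps1, the first enzyme of the urea cycle, at -0.62 ± 0.26 and Cyp7a1, the rate-limiting enzyme of bile acid synthesis, at -0.60 ± 0.62.

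The sequence upstream of the members' start sites was searched for the binding letters of the members' own families, in windows of 250 bases from RefSeq (GRCm38.p6). The table held 13 windows of 8 members, not of Gata4. The motifs, read on both strands, were TGTTTAC (forkhead), CAAAGTCCA (Hnf4), ATTGATT (Onecut), TTGCGCAA (C/EBP), AGATAA for the zinc finger factors of the Gata4 family and CAAGGTCA (Nr5a), and no match of one overlapped a match of another in the members' windows. Hnf4a has 2 start regions that lie far apart, of which the downstream one is known for adult liver and the upstream one for embryonic and other tissues; the upstream window is printed because it holds letters of the families of both Onecut1 and Gata4. In it (chr2:163506607-163506856, plus strand) capitals mark an Onecut match 60 bases before the start and a GATA match 52 bases before it.
Hnf4a, upstream start: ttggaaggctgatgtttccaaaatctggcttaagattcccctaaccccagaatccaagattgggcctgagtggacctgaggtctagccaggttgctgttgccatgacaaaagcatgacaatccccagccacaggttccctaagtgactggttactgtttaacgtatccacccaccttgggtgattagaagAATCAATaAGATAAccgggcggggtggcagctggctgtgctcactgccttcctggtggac
The Onecut letters stand in 2.61% of all 32851 windows of this length and the GATA letters in 9.99%. Among the other members, forkhead letters stood upstream of Foxa1 (3.17% of all windows), GATA letters upstream of Foxa2 and at 217 and 200 bases before a start of Nr5a2, and Onecut letters upstream of Foxa2. The Hnf4 (0.384%), C/EBP (0.164%) and Nr5a (1.33%) letters were in none of the 13 windows. Letters of the HNF1 family, which holds no member, were also searched. They stood in 0.292% of all windows and in 1 of the 13, the downstream window of Hnf4a, 79 bases before the start. A match is a description of the letters and not a bound site, and the probes on these arrays do not separate the transcripts of the 2 Hnf4a starts.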

How the data were processed

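Intensity values were taken from the scanner files that the authors deposited, made with Agilent Feature Extraction (version 11.5.1.1 per the file headers; the probes' build is mm9). The processed signal is background-subtracted by that software, and a deposited flag marks probes well above background. The authors also deposited log2 values from GeneSpring GX after a 75th percentile shift, whose scale was checked against the intensities and used as an alternative. Deposited outlier flags of spots were used to leave spots out, together with controls. Spots of a probe were averaged, log2 signals were shifted by each array's 75th percentile, a probe was kept where the 2 arrays of some group were both flagged as above background, and a gene was read by its brightest probe. Differences were tested with limma (version 3.58.1, R 4.3.3) over all genes, within a slide or, across slides, over probes of identical sequence. Probes were named through RefSeq accessions, then symbols and synonyms. Named genes of the lists were those with the 3 largest differences among probes above background on all 4 arrays, and paralogs of members. The members and lists were chosen with earlier results of these data known. Scripts were tested on simulated data. Alternatives were normexp correction with an offset of 50, quantile normalization, no filter, the GeneSpring values, the mean over a gene's probes, the methods' t-test, other scalings and leaving out each array. Depth does not apply to arrays, where the number of arrays limits the precision. Some genes of the lists that the naming rule picked are not reported here by name.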

Additional observations from a re-analysis of the deposited data

Results flagged for a closer look

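The change of Cebpa against Lin- BM cells was larger at 5 months than at 1 month by 1.35 on the log2 scale, and this difference between the 2 times was itself called (limma adjusted p = 0.0302, 2 arrays per group). Both 5-month arrays lay above both 1-month arrays, but the 2 groups did not overlap in 71.7% of all genes of that comparison. The 1-month and 5-month arrays lay on different slides, so slide and time cannot be told apart. The call was lost without B1 (1.61, adjusted p = 0.0554), without B2 (1.1, adjusted p = 0.145), without G1 (adjusted p = 0.139) and without G3 (adjusted p = 0.138).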

How the results depend on the processing

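Of the members called higher at 1 month (7), in primary hepatocytes (3) and at 5 months (3) than in Lin- BM cells, all counts stayed within 1.5 times under every alternative that was run, with 7 to 8, 3 and 3 members as single arrays were left out. For 5 months against primary hepatocytes the count of 0 became 3 under the methods' t-test without adjustment, and ran from 0 to 1 as arrays were left out. For 1 month against primary hepatocytes the count of 0 became 3 with normexp correction and 1 with no filter, with the GeneSpring GX values or with the 75th percentile over all probes of the design, and ran from 0 to 1 as arrays were left out. For 5 months against 1 month the count of 1 became 0 under the methods' t-test with Benjamini-Hochberg adjustment, and ran from 0 to 2 as arrays were left out. No called difference of a member changed sign. Over all genes, 15782 were called at 1 month against Lin- BM cells, against 26462 with no filter, 4571 by the adjusted t-test and 9898 without B2. Between 5 months and primary hepatocytes 110 were called, against 38 with no filter, 1363 by the unadjusted t-test and 0 by the adjusted one, 1396 and 1305 without H2 and without H4, and 0 without G1 or without G3. On the shared probes, 6219 and 6193 were called for primary hepatocytes and 5 months against Lin- BM cells, against 2505 and 3317 by the adjusted t-test. For 1 month against primary hepatocytes 1550 were called, against 2436 with normexp, 4035 with no filter, 2 by the adjusted t-test, 833 without H2, 911 without B1, 597 without B2, 1005 without G1 and 993 without G3, and for 5 months against 1 month 1576, against 2704 with normexp, 14 by the adjusted t-test, 843 without B1, 514 without B2, 357 without G1 and 455 without G3; a lone array was then assumed to vary like the other group. At 1 month, normexp correction raised the median over all genes (0.07) to 0.37 and took higher calls from 52.1% to 62.9% of calls. The causes were not tested. Slide as a block could not be fitted across slides, because each group lay on 1 slide. No paired analysis was possible because the groups compared share fewer than 2 replicate numbers.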
